A study of Mus musculus with 12 samples.

Results

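Kap and 6 other genes best known from the kidney, Umod, Slc34a1, Miox, Acsm2, Fxyd2 and Napsa, were followed in the RNA of 12 mouse spleens. They make up 7 of the 18221 genes in the data, and all 7 were measured. The members were chosen by their kidney expression after Kap had stood out in these same data by how much it varied between spleens, so the levels of the members below are a description and carry no test. Other genes of the kidney, on lists made with earlier results of these data known, were tested beside them.

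The mice were ICR males, an outbred stock, that entered the experiment at 3 weeks of age and were killed at 8 weeks, with 3 spleens in each of 4 groups. Con-sa mice were dosed with saline. B-sa mice had a single injection of busulfan, an alkylating anti-cancer drug, at 40 mg/kg and then saline. B+Con-FMT and B+A10-FMT mice had the same injection and then, daily for 2 weeks, fecal microbiota transplantation (FMT), which is the oral transfer of gut contents, from donors dosed with water or from donors dosed with alginate oligosaccharide (AOS) at 10 mg/kg. The small intestinal contents of the donors of each kind were pooled, so that each FMT group received the same material. The labels do not say whether the 3 spleens of a group came from separate cages or days.

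The kidney recovers most of what it filters in the proximal tubule, whose cells carry transporters for phosphate, organic anions and amino acids together with enzymes that burn fatty acids and break down inositol. The thick ascending limb, further along the tubule, secretes uromodulin into the urine. The spleen filters blood, houses B and T lymphocytes and, in the mouse, makes red cells.

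Levels are given in RPKM, the reads of a transcript scaled to its length in kilobases and to the mapped reads of the library, summed over the transcripts of a gene. Depth was estimated from the smallest steps between RPKM values at 14700000 to 15700000 reads per mouse, and the summed RPKM was 677033 to 772157. Globin genes took 23.3% to 32.4% of it, and single globin genes differed between groups far more than this share. All 28 measured genes of a list of 30 spleen and blood cell markers were present in every group. So were all 16 liver and 22 pancreas acinar genes listed below, so presence alone does not test the tissue label. Differences were fitted with limma, a linear model across all genes, on log2(RPKM + 1) for the 12671 genes at RPKM 1 or more in at least 3 mice, with a call at a Benjamini-Hochberg adjusted p under 0.05. The scaling moved the balance of calls over all genes: the lower share of calls in B-sa vs Con-sa was 67.4%, and 44.4% after median-of-ratios scaling, while in B+Con-FMT vs Con-sa it was 74.0%, 47.6% after median-of-ratios scaling and 89.2% with totals made equal outside the globin genes. For B+A10-FMT vs B-sa it was 24.1%, and 55.3% after median-of-ratios scaling. In B+A10-FMT vs B+Con-FMT it was 26.8%, 55.4% after median-of-ratios scaling and 10.2% with the globin genes set aside, and in B+Con-FMT vs B-sa 26.2% and 62.8% with them set aside. The median log2 difference over all genes stayed between -0.085 and 0.098 under each scaling and comparison.

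Kap, the kidney androgen-regulated protein, is a transcript of the proximal tubule that androgens raise in the mouse. It lies at chr6:133849855-133853667 (GRCm38.p6). Its level was 96.9, 72.7 and 112 RPKM in the 3 Con-sa spleens, 7.23, 11.6 and 14.4 in B-sa mice, 23.3, 16.8 and 60.0 in the B+Con-FMT group and 1.43, 0.58 and 2.96 in B+A10-FMT. No group overlapped another. In estimated reads, which make the precision plain, this was 773, 591 and 926 reads in Con-sa, 59, 97 and 121 in B-sa mice, 194, 140 and 498 in the B+Con-FMT group and 12, 5 and 24 in B+A10-FMT.

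The group means of Kap were 93.9 ± 20.0 RPKM in Con-sa (SD, n = 3 here and below), 11.1 ± 3.63 in B-sa mice, 33.4 ± 23.3 in the B+Con-FMT group and 1.66 ± 1.21 in B+A10-FMT. The mean was therefore 8.48-fold lower in B-sa and 56.7-fold lower in B+A10-FMT than in Con-sa, 3.01-fold higher after B+Con-FMT than in B-sa mice, and 20.1-fold lower after B+A10-FMT than after B+Con-FMT. On the log2(RPKM + 1) scale, which understates the change of low values, the fitted difference of B-sa from Con-sa was -3.00 ± 0.51 (SE), that of B+Con-FMT -1.65 ± 0.51 and that of B+A10-FMT -5.24 ± 0.51. These folds rest in part on single mice. Without replicate 3 of B+Con-FMT its mean was 20.1 RPKM, 1.81-fold that of B-sa, 4.68-fold below Con-sa in place of 2.82-fold, and 12.1-fold that of B+A10-FMT. Without replicate 3 of B+A10-FMT, Kap there was 93.5-fold lower than in Con-sa and 33.2-fold lower than after B+Con-FMT. In bulk tissue, fewer cells that make a transcript and less of it in each cell cannot be told apart.

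**Figure D1:**
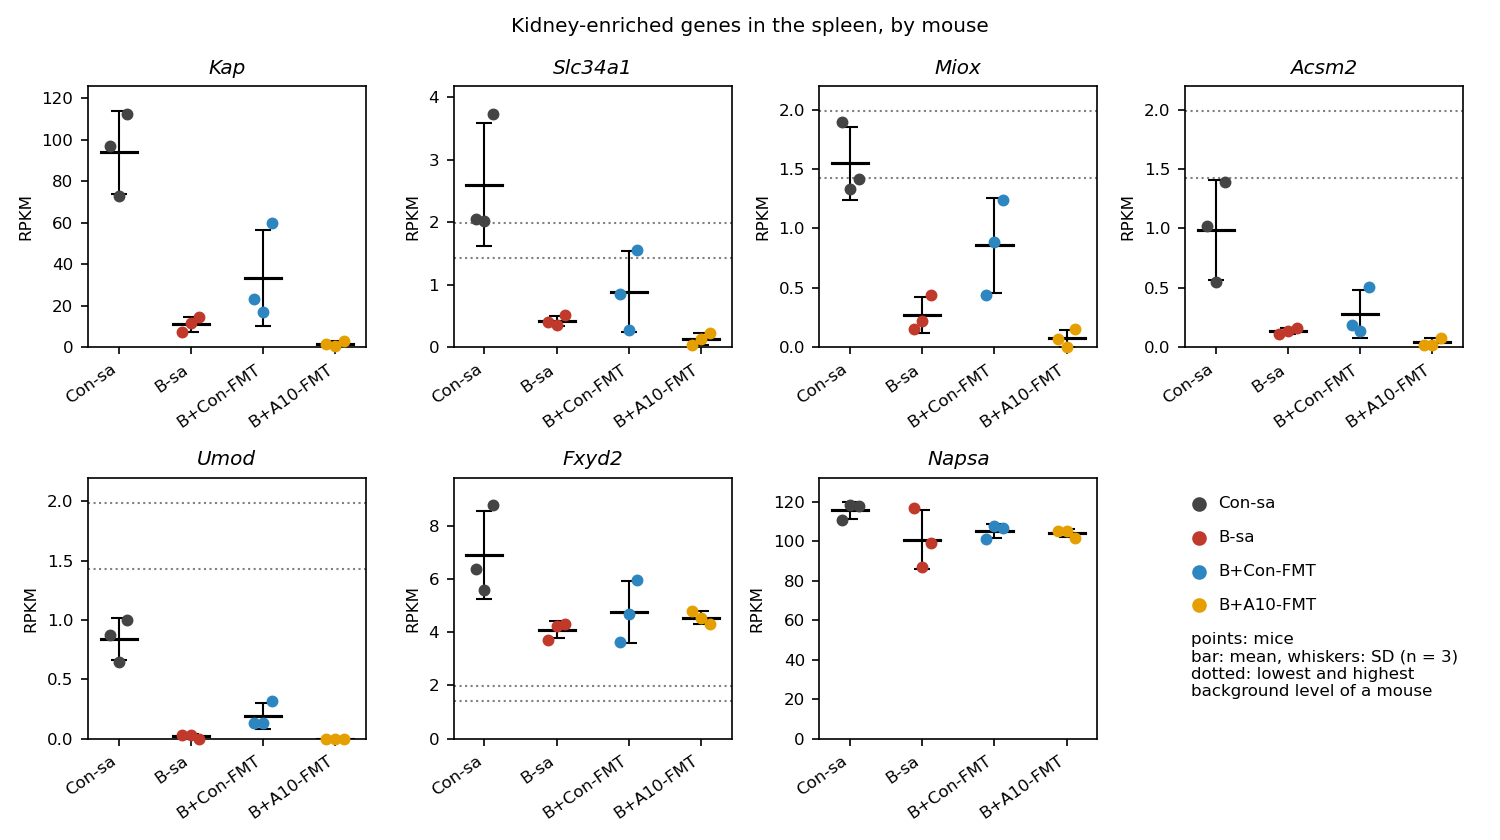
RPKM of each of the 7 genes in the 12 spleens, 1 panel per gene, with points for mice, bars for group means and whiskers for the SD (n = 3); each panel has its own axis from 0, and the dotted lines in 5 panels mark the lowest and highest background level of a mouse, 1.43 and 1.99 RPKM. Kap, Slc34a1, Miox, Acsm2 and Umod are highest in Con-sa and lowest in B+A10-FMT, while Napsa stays between 86.8 and 118 RPKM.

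Slc34a1, the sodium-phosphate cotransporter of the proximal tubule brush border (chr13:55399622-55414695), was read at a small share of the level of Kap. Its values were 2.05, 2.02 and 3.73 RPKM in Con-sa, 0.41, 0.35 and 0.51 in B-sa mice, 0.85, 0.27 and 1.55 in the B+Con-FMT group and 0.04, 0.13 and 0.23 in B+A10-FMT. The Con-sa mice lay above all others, and B+A10-FMT lay below all others. The mean fell from 2.60 ± 0.979 RPKM in Con-sa to 0.423 ± 0.0808 in B-sa and 0.133 ± 0.0950 in B+A10-FMT, and was 0.890 ± 0.641 in B+Con-FMT. Without replicate 3 of each group it was 0.56 after B+Con-FMT and 0.085 with B+A10-FMT. Most of the RPKM of Con-sa, 1.64 ± 0.229, was assigned to the curated transcript NM_011392 and the rest to predicted transcripts. NM_011392 alone had 0.220 ± 0.113 RPKM in B-sa mice, 0.500 ± 0.293 in the B+Con-FMT group and 0.130 ± 0.0900 in B+A10-FMT.

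Miox, myo-inositol oxygenase, opens the breakdown of inositol in the proximal tubule (chr15:89334473-89337007). It had 1.90, 1.33 and 1.42 RPKM in Con-sa, 0.15, 0.22 and 0.44 in B-sa mice, 0.44, 0.89 and 1.24 in the B+Con-FMT group and 0.07, 0 and 0.15 in B+A10-FMT. Con-sa again lay above every other mouse, but B-sa met B+Con-FMT at 0.44 RPKM and met B+A10-FMT at 0.15 RPKM. The values rest on few reads, an estimated 19 to 27 in Con-sa and 0 to 2 in B+A10-FMT.

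Acsm2, a mitochondrial acyl-CoA synthetase of the proximal tubule (chr7:119554340-119600694), had 1.02, 0.55 and 1.39 RPKM in Con-sa. It had 0.11, 0.14 and 0.16 RPKM in B-sa mice, 0.19, 0.14 and 0.51 in the B+Con-FMT group and 0.02, 0.02 and 0.08 in B+A10-FMT. The mean of Con-sa was 7.22-fold that of B-sa, and no fold is given against B+A10-FMT, whose mean rests on replicate 3. Con-sa lay above and B+A10-FMT below all other mice, while B-sa and B+Con-FMT met at 0.14 RPKM.

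Umod, uromodulin, is made by the thick ascending limb and not by the proximal tubule (chr7:119462708-119479262). It was read at 0.87, 0.65 and 1 RPKM in Con-sa, 0.03, 0.03 and 0 in B-sa and 0.13, 0.13 and 0.32 in B+Con-FMT, and was listed at 0 in all 3 B+A10-FMT mice. Its mean in Con-sa, 0.840 ± 0.177 RPKM, was 4.34-fold that in B+Con-FMT. No fold is given against B+A10-FMT, where nothing was read. The authors' tables split the reads of Umod between 2 transcripts that changed places from mouse to mouse, so only their sum is used.

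Fxyd2, the gamma subunit of the sodium-potassium pump of the tubule, differed in pattern from these 5 genes (chr9:45399709-45410278). Its values were 6.37, 5.58 and 8.77 RPKM in Con-sa, 3.72, 4.25 and 4.30 in B-sa mice, 3.62, 4.69 and 5.95 in the B+Con-FMT group and 4.80, 4.53 and 4.31 in B+A10-FMT. The 9 mice given busulfan all had at least 3.62 RPKM. B-sa and B+A10-FMT barely parted, with the highest B-sa value at 4.30 and the lowest B+A10-FMT value at 4.31 RPKM. The fitted log2 difference of B+A10-FMT from B-sa was 0.12 ± 0.15, and limma did not call it. The fitted log2 difference from Con-sa was -0.62 ± 0.15 in B-sa mice, -0.46 ± 0.15 in the B+Con-FMT group and -0.49 ± 0.15 in B+A10-FMT.

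Napsa, napsin A, is a lysosomal aspartic protease of kidney and lung (chr7:44572445-44586846), and it was the highest of the 7 genes in all 12 mice. It had 111, 118 and 118 RPKM in Con-sa, 117, 86.8 and 99.2 in B-sa mice, 101, 108 and 107 in the B+Con-FMT group and 105, 105 and 102 in B+A10-FMT. All mice lay between 86.8 and 118 RPKM, and the fitted log2 difference from Con-sa was -0.21 ± 0.082 in B-sa mice, -0.13 ± 0.082 in the B+Con-FMT group and -0.15 ± 0.082 in B+A10-FMT. In gene catalogues Napsa also carries the older names KAP and Kdap, so the values here were taken by gene identifier (16541 for Napsa, 16483 for Kap) and not by name.

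Background was taken from 44 measured genes of 55 listed as specific to tissues such as brain, retina and pituitary, and a gene counted as above it in a mouse when its RPKM passed the 95th percentile of those genes there, 1.43 to 1.99 RPKM. Napsa and Fxyd2 were above background in all 12 mice. Kap was above it in 10 of 12, failing in 2 of the 3 B+A10-FMT mice. Slc34a1 was above it in 3 mice, all of Con-sa, and Miox in 1, while Umod and Acsm2 never were. So 2 of the 7 genes met the level throughout the series.

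That level is a strict one, because 3 genes of the reference, Slc6a4, Gfap and Tshb, were themselves read in spleen, with Slc6a4 at up to 22.4 RPKM. Without those 3 genes, a change made after the data were seen, the level was 0.590 to 0.930 RPKM. Kap then passed it in 11 mice, Slc34a1 and Miox in 5 each, and Umod and Acsm2 in 2 each, all of these 2 in Con-sa.

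Promoters of members are shown because 5 of the genes moved together, as a description of the letters there and not of any factor's binding. RefSeq (GRCm38.p6) gave a promoter for 5 members, Kap, Umod, Slc34a1, Miox and Acsm2, and for Acsm2 a second one. The 250 bases before the start of 4 of them follow on the strand of the gene, with the letters GTTAAT and its other-strand form ATTAAC, the core of the site of HNF1, a factor of kidney tubule and liver, and AGAACA or TGTTCT, the core of the androgen receptor's site, in capitals.
Kap promoter: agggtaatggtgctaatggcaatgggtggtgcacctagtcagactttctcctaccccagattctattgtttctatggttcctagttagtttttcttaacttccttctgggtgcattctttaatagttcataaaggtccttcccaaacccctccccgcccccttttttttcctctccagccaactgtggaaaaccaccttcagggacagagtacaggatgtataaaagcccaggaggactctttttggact
Umod promoter: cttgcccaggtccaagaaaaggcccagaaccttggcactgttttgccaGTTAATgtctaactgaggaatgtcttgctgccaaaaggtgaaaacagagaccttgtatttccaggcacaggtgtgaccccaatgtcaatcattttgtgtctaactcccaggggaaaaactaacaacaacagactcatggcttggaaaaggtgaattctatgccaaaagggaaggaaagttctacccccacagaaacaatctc
Slc34a1 promoter: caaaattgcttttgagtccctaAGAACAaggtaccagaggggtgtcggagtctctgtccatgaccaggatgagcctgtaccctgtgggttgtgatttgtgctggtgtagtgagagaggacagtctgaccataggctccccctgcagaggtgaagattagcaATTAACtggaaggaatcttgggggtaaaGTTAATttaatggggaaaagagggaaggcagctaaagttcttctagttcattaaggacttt
Miox promoter: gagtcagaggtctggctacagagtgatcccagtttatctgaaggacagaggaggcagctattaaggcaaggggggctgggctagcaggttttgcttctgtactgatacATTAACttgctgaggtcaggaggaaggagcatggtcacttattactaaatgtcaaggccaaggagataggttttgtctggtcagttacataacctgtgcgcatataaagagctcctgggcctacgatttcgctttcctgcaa
These lie at chr6:133853668-133853917 on the minus strand for Kap, chr7:119479263-119479512 on the minus strand for Umod, chr13:55399398-55399647 on the plus strand for Slc34a1 and chr15:89334223-89334472 on the plus strand for Miox.

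The letters GTTAAT or ATTAAC stood in 4 of the 6 promoters, those of 4 of the 5 members, with the match beginning at base -202 from the start in Umod, at -89 and -61 in Slc34a1, at -142 in Miox and at -166 in Acsm2. They were not in the Kap window or the second one of Acsm2. In the same windows of 250 bases before to 50 after the start, 7.10% of all 32851 promoters held these letters, as did those of 13 of 62 other kidney genes (21.0%) and of 2228 of all 27025 genes (8.24%). The letters AGAACA or TGTTCT, present in 19.0% of all promoters, were in the window of Slc34a1 and the first of Acsm2 and not in that of Kap. The 2 motifs share no letters at these matches.

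The members were then set beside the same counts over all genes. Of the 7 genes, 5 passed the filter on low values, and Slc34a1 and Miox passed it only through the 3 Con-sa mice and replicate 3 of B+Con-FMT, so that they had to differ. Umod and Acsm2 were left out of the fit by it. In B-sa vs Con-sa, Kap, Slc34a1, Miox and Fxyd2 were called lower, where 9.78% of all genes tested were. In B+Con-FMT vs Con-sa only Slc34a1 was called lower, against 6.57% of all genes, and in B+A10-FMT vs Con-sa Kap, Slc34a1 and Miox were, against 0.292%. These 3 comparisons share the Con-sa mice, and nothing is read from the counts, since the choice of the members used these contrasts.

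Between the busulfan groups, limma called no member higher with B+Con-FMT than with B-sa, where 0.623% of all genes were. Kap and Miox had an unadjusted p under 0.05 there. Counts at an unadjusted p under 0.05, here and below, have no share of all genes beside them, and nothing is read from them. Against B-sa, B+A10-FMT gave a lower call for Kap, beside 1.27% of all genes. Against B+Con-FMT, B+A10-FMT gave lower calls for Kap and Miox, where 2.78% of all genes were lower and 7.58% higher. The log2 difference of Kap there was -3.59 ± 0.51 and that of Miox -0.77 ± 0.16. Slc34a1 had -0.68 ± 0.22 and was not called, though 3 of 14 alternative fits called it. Over the alternatives its difference ran from -1.92 to -0.44, and that of Miox from -2.47 to -0.62.

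Several of these calls rested on particular mice. The 4 calls of B-sa vs Con-sa became 3 to 5 when a mouse was left out. The count of B+Con-FMT vs Con-sa rose to 4 without replicate 3 of B+Con-FMT and went to 0 without replicate 1 or 3 of Con-sa or replicate 1 or 2 of B+Con-FMT. The 3 calls of B+A10-FMT vs Con-sa went to 0 without replicate 1 of B+A10-FMT, and the call of Kap against B-sa went to 0 without replicate 2 or 3 of B-sa or any B+A10-FMT mouse. Miox lost its call between the FMT groups without replicate 2 of B+A10-FMT, leaving 1. The sign of the fitted differences of Kap, Slc34a1 and Miox held in each of these, and that of Fxyd2 and Napsa was followed against Con-sa, where it held.

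Groups that did not overlap were counted without a model, and these counts were higher than those of the calls. The B-sa mice were all lower than all Con-sa mice for 6 of the 7 genes, Napsa being the exception, where 17.8% of the 18218 genes read in any mouse were. For B+Con-FMT vs Con-sa it was 6, all but Fxyd2, against 18.7%, and for B+A10-FMT vs Con-sa all 7, against 9.04%. B+Con-FMT lay above B-sa for Kap and Umod, against 8.11% of all genes. B+A10-FMT lay below B-sa for Kap, Slc34a1 and Acsm2, against 6.59%, and below B+Con-FMT for Kap, Umod, Slc34a1, Miox and Acsm2, against 9.21%. With 3 mice against 3, the smallest p of a two-sided exact permutation test is 0.1, so no single gene can pass such a test.

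**Figure D2:**
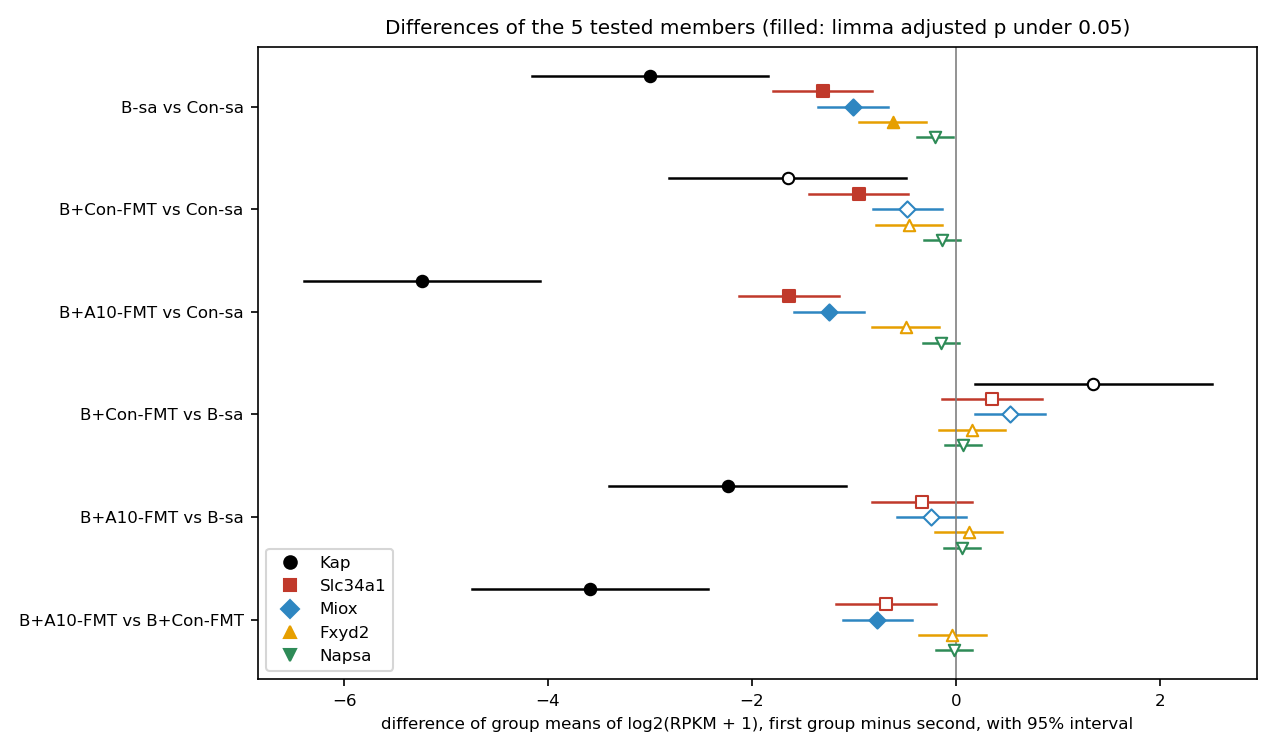
Fitted difference of group means on the log2(RPKM + 1) scale for the 5 members that passed the filter, by comparison, with the first group minus the other on the x axis and lines for the 95% interval; filled symbols mark a limma adjusted p under 0.05. Kap spans from -5.24 in B+A10-FMT vs Con-sa to 1.35 in B+Con-FMT vs B-sa, while Napsa lies between -0.21 and 0.07.

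The group means of Kap, Slc34a1, Miox, Acsm2 and Umod came in the same order, with Con-sa above B+Con-FMT, B+Con-FMT above B-sa and B-sa above B+A10-FMT. The order of the middle pair was the least firm: only Kap and Umod had these groups apart. Fxyd2 and Napsa did not follow it. Of 81 other kidney genes, on lists made with earlier results of these data known, 25 had that order (30.9%), against 495 of 18218 genes (2.72%). Among the 43 of them that mark the proximal tubule it was 20 (46.5%), among 6 general tubule genes 3, among 8 distal tubule genes 2, and among the 7 of the thick ascending limb, 12 of the collecting duct and 5 of the glomerulus and renin cells none. Most of these 25 genes had a mean under the background level even in Con-sa, such as Kl at 0.163 and Cdh16 at 0.367 RPKM. Keg1 and Ttc36, at 2.08 and 2.24 RPKM there, were above it. At such low levels the order can turn on a few reads, and the share was not counted over genes of like level.

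The other kidney genes were fitted beside the members. Only 18 of the 81 passed the filter, and of these Tmem27 and Keg1 were called lower in each of the 3 comparisons with Con-sa, where 9.78% of all genes were called lower for B-sa, 6.57% for B+Con-FMT and 0.292% for the B+A10-FMT mice. For B-sa the count is near the share of all genes. Tmem27 passed the filter only through the 3 Con-sa mice, and Keg1 through them and replicate 3 of B+Con-FMT, so that both had to differ and their differences are a description, with no test. Tmem27, collectrin, which carries amino acid transporters to the tubule surface, had a mean of 1.59 ± 0.317 RPKM in Con-sa, 0.160 ± 0.219 in B-sa mice, 0.453 ± 0.431 in the B+Con-FMT group and 0.0767 ± 0.133 in B+A10-FMT. Its log2 difference from Con-sa was -1.17 ± 0.20 in B-sa mice, -0.86 ± 0.20 in the B+Con-FMT group and -1.26 ± 0.20 in B+A10-FMT. Keg1, named for its expression in kidney, had 2.08 ± 0.775, 0.387 ± 0.237, 0.687 ± 0.593 and 0.0700 ± 0.0265 RPKM in the same order of groups, and log2 differences of -1.13 ± 0.23, -0.89 ± 0.23 and -1.49 ± 0.23.

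These counts moved with single mice and with the filter. They were 0 in B+Con-FMT vs Con-sa without replicate 1 or 3 of Con-sa or replicate 1 or 2 of B+Con-FMT. For B+A10-FMT vs Con-sa they were 0 without replicate 1 or 3 of Con-sa or replicate 1 of B+A10-FMT and 1 without its replicate 2. In B-sa vs Con-sa the count was 1 without replicate 1 or 3 of Con-sa. Without any filter on low values, 20 of the 81 genes (24.7%) were called lower in B-sa vs Con-sa, where 5.93% of all genes were, 10 (12.3%) in B+Con-FMT vs Con-sa against 3.64%, and 10 (12.3%) in B+A10-FMT vs Con-sa against 0.302%, with 0 higher in each. Keg1 was not among the 10 of B+Con-FMT vs Con-sa. Of the 20, 14 were genes of the proximal tubule.

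Among those called without the filter, 3 genes of the tubule at low levels are named, chosen after their values were seen. Their group means were all under even the lower background level of 0.590 to 0.930 RPKM, so their calls rest on few reads. Slc22a6, which takes organic anions from blood into the tubule, had 0.577 ± 0.146 RPKM in Con-sa, 0.0833 ± 0.0289 in B-sa and 0.130 ± 0.0985 in the B+Con-FMT group and was listed at 0 in B+A10-FMT. Cdh16, the kidney cadherin of tubule cells, had 0.367 ± 0.0777, 0.0567 ± 0.0115, 0.117 ± 0.0252 and 0.00667 ± 0.0115 RPKM in that order of groups. Kl, klotho, the coreceptor for a phosphate hormone, had 0.163 ± 0.0379, 0.0267 ± 0.0153, 0.05 ± 0.02 and 0.00667 ± 0.00577 RPKM. All 3 were called lower in each comparison with Con-sa. Between the groups given busulfan, limma without the filter called 0 of the 81, with 5 at an unadjusted p under 0.05 in B+Con-FMT vs B-sa, 3 in B+A10-FMT vs B-sa and 15 between the FMT groups. With the filter it also called 0 of 18 in both comparisons with B-sa, with 4 and 3 at an unadjusted p under 0.05.

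The kidney genes of highest level in spleen were in the main not called. Ass1, a urea cycle and arginine synthesis enzyme, had 34.0 ± 6.75, 31.0 ± 3.79, 34.4 ± 2.52 and 35.4 ± 2.22 RPKM, and Gatm, which starts creatine synthesis, 14.7 ± 1.62, 16.1 ± 0.251, 14.2 ± 1.45 and 17.7 ± 1.47. Gatm was called higher with B+A10-FMT than after B+Con-FMT, by 0.30 ± 0.086 on the log2 scale (limma adjusted p = 0.0424), and the call was lost after median-of-ratios scaling and without replicate 1 or 2 of B+Con-FMT or replicate 2 of B+A10-FMT. Klk1, tissue kallikrein, which the exocrine pancreas also makes, had 50.3 ± 32.8, 20.2 ± 15.3, 114 ± 29.7 and 37.2 ± 49.1 RPKM and was not called, with an unadjusted p under 0.05 in B+Con-FMT vs B-sa (log2 difference 2.64 ± 0.96) and in B+A10-FMT vs B+Con-FMT (-2.44 ± 0.96). The other named genes of the lists, Cyp2e1, Cyp4b1, Synpo, Calml4, Pth1r, Pck1 and Ptger3, had means of 2.17 to 13.7 RPKM over the 12 mice, and limma called none of these 7 in any comparison. At an unadjusted p under 0.05, Pck1, which opens glucose synthesis and is also made by fat cells, passed in 4 comparisons, Calml4 in 3 and Synpo in 1, with differences from Con-sa of -1.01 ± 0.37 for Pck1 and -0.61 ± 0.18 for Calml4 in B+Con-FMT. The 12 genes of the collecting duct summed to a mean of 2.70, 1.61, 2.16 and 2.49 RPKM, and the water channel Aqp2 was at no more than 0.1 RPKM in any mouse. Another water channel, Aqp3, had 0.927 ± 0.0971 RPKM in Con-sa, 0.527 ± 0.143 in B-sa mice, 0.607 ± 0.318 in the B+Con-FMT group and 0.833 ± 0.110 with B+A10-FMT, with all B-sa and all B+Con-FMT mice below all Con-sa mice, as held for 17.8% and 18.7% of all genes.

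The ratios of the members within a mouse varied from pair to pair. Kap over Umod was 111 to 112 in all 3 Con-sa mice, 241 to 386 in the 2 B-sa mice with any Umod, and 130 to 187 in B+Con-FMT. Kap over Acsm2 lay between 80.8 and 132 in Con-sa, between 65.7 and 90.2 in B-sa mice, and at 118 to 122 in the B+Con-FMT group and 29.0 to 71.5 in B+A10-FMT, so that a 56.7-fold range of Kap means came with ratios that spanned far less. Kap over Slc34a1 was 30.1 to 47.3 in Con-sa and 4.46 to 35.8 in B+A10-FMT, and the low end of B+A10-FMT rests on a handful of estimated reads. Kap over Napsa, by contrast, ran from 0.615 to 0.951 in Con-sa down to 0.00550 to 0.0291 in B+A10-FMT.

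Across the 12 mice, on log2(RPKM + 1), Kap correlated with Miox at r = 0.94, with Slc34a1 at 0.91, with Acsm2 at 0.87 and with Umod at 0.86, but with Fxyd2 at 0.65 and with Napsa at 0.38. These are descriptions over mice that share groups. Taken as deviations from the group means they were 0.65, 0.73, 0.70, 0.62, 0.55 and -0.28. The genes most like Kap among all 12671 tested included Miox, Slc34a1, Keg1 (r = 0.90) and Gxylt1, a glycosyltransferase (0.88). The most opposed were Dnajc10 (r = -0.88), Cd200r1 (-0.88) and Slc7a1 (-0.85), whose deviations from the group means correlated with those of Kap at -0.36, 0.04 and -0.02.

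Fxyd2 and Napsa had other company. The genes most like Fxyd2 were Rftn2 (r = 0.92), Ttc36 (0.91), which is itself on the proximal tubule list, and Kctd15 (0.90). Those most like Napsa were B3gnt8 (0.94), Cd52, a surface protein of lymphocytes (0.92), and Cd74, the chaperone of class II antigen presentation (0.90). Cd74 had 4029 ± 285 RPKM in Con-sa and 3272 ± 342 in B-sa mice, and Napsa deviated with it within groups too, at r = 0.88.

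**Figure D3:**
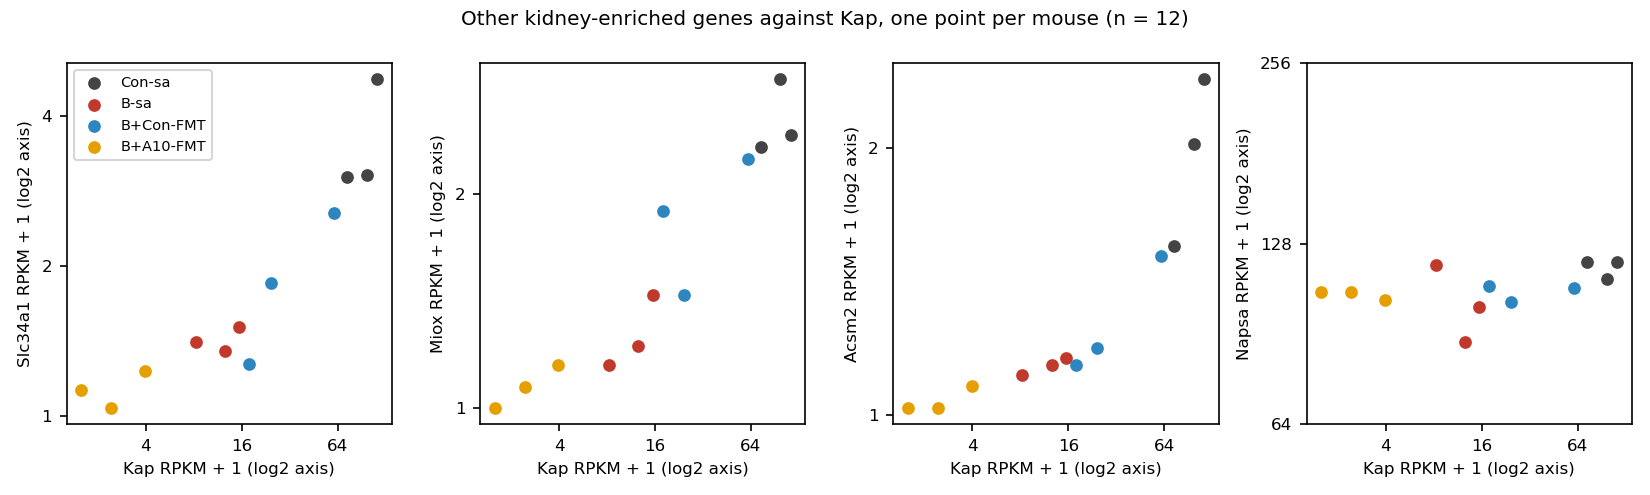
Slc34a1, Miox, Acsm2 and Napsa (y axes, RPKM + 1) against Kap (x axes, RPKM + 1), both on log2 axes, with 1 point for each of the 12 mice coloured by group. Slc34a1, Miox and Acsm2 climb with Kap from B+A10-FMT at the lower left to Con-sa at the upper right, with r = 0.91, 0.94 and 0.87, and Napsa runs flat, with r = 0.38.

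Genes of other tissues were read in the same spleens. The summed level of 16 liver genes had a mean of 201 RPKM in Con-sa, 75.6 in B-sa mice, 48.5 in the B+Con-FMT group and 18.2 in B+A10-FMT, with albumin, Alb, at 62.3 ± 56.2, 19.2 ± 15.2, 12.9 ± 11.3 and 2.66 ± 1.62. The liver sum ran from 32.7 to 389 RPKM within Con-sa, from 17.4 to 131 in B-sa mice, from 23.2 to 93.6 in the B+Con-FMT group and from 12.4 to 27.0 with B+A10-FMT, so that B-sa and B+Con-FMT, which Kap kept apart, overlapped. limma called 0 of 14 tested liver genes in every comparison, with 10 at an unadjusted p under 0.05 in B+A10-FMT vs Con-sa. The 22 pancreas acinar genes, in contrast, summed highest in B+Con-FMT, 11150 to 17973 RPKM, and to 1761 to 9496 in Con-sa, and ran to 13170 in a B+A10-FMT mouse and as low as 617 in another. limma called 0 of the 22 in each comparison, with 21 at an unadjusted p under 0.05 in B+Con-FMT vs B-sa and 14 in B+A10-FMT vs B+Con-FMT. The 10 fat cell genes summed to a mean of 180, 220, 85.2 and 76.2 RPKM, with 0 of 8 tested called by limma and at most 6 at an unadjusted p under 0.05 in a comparison, and 9 measured genes of the adrenal gland, which lies on the kidney, to 17.3, 10.2, 9.15 and 13.7. Of 3 adrenal genes tested, 2 were called lower in B-sa vs Con-sa, as were 2 in B+Con-FMT vs Con-sa, where 9.78% and 6.57% of all genes were. B+A10-FMT vs B+Con-FMT had 2 of the adrenal genes called higher, where 7.58% of all genes were. Cyp21a1, the steroid 21-hydroxylase of the adrenal cortex, had 5.85 ± 1.1 RPKM in Con-sa, 1.96 ± 0.260 in B-sa mice, 2.49 ± 1.58 in the B+Con-FMT group and 3.44 ± 0.205 in B+A10-FMT.

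Of 14 measured stomach and intestine genes, Fabp1, which liver and proximal tubule also make, was the highest, at 15.1 ± 10.4, 8.07 ± 4.87, 5.49 ± 4.22 and 2.73 ± 0.925 RPKM. Of 11 testis and epididymis genes, Insl3 was the highest, at 4.78 ± 2.93, 3.76 ± 2.83, 7.45 ± 0.999 and 2.79 ± 0.424 RPKM. The 20 genes of B lymphocytes and dendritic cells summed to 7183 to 8084 RPKM in Con-sa and 5719 to 6914 in B-sa. limma called 11 of them lower in B-sa vs Con-sa and 6 in B+Con-FMT vs Con-sa, where 9.78% and 6.57% of all genes tested were. In B+A10-FMT vs Con-sa it called 0, and 11 had an unadjusted p under 0.05. Only 0.292% of all genes were called lower in that comparison, so little is read from the 0. The part of neighbouring tissue in the levels of the kidney genes was not tested.

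**Figure D4:**
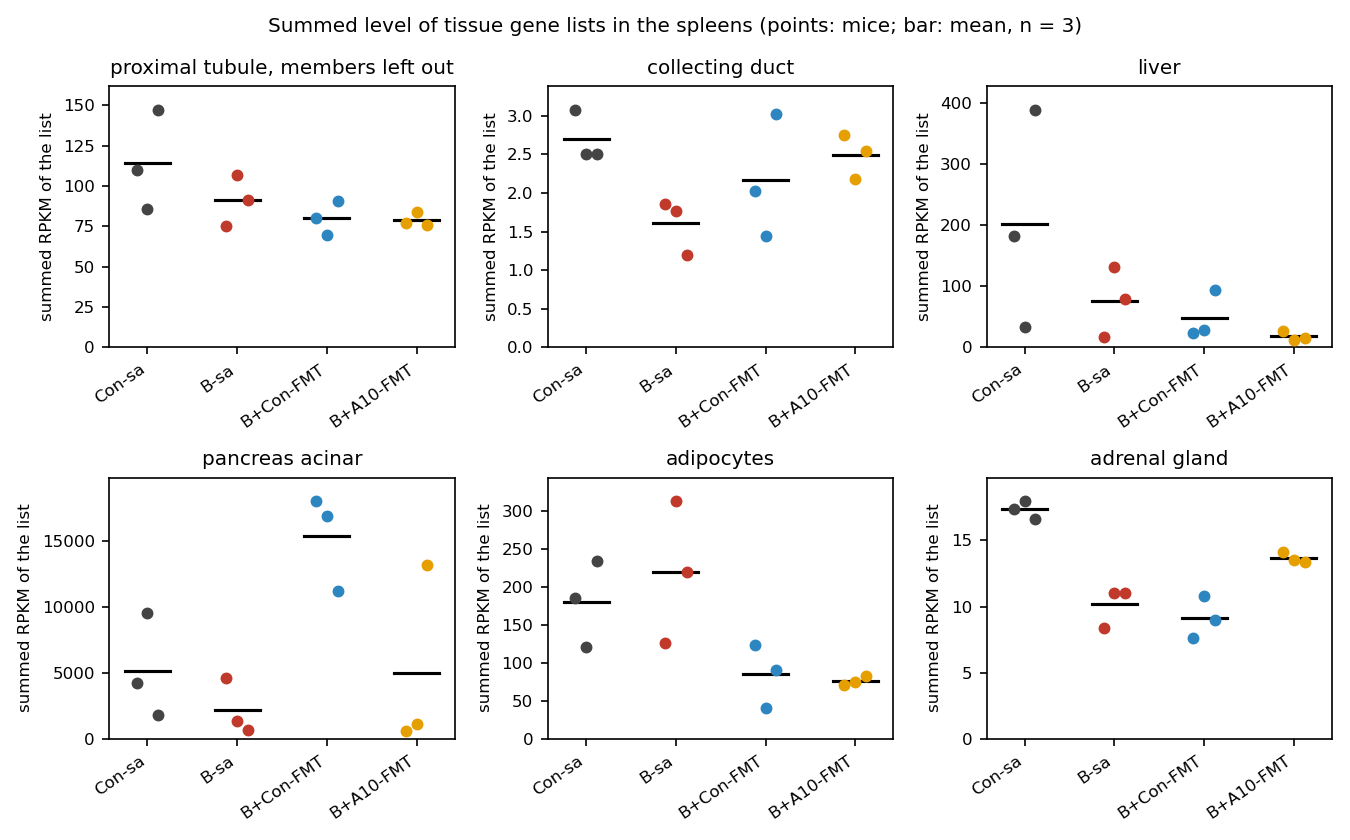
Summed RPKM of 6 tissue gene lists in each mouse, with points for mice and bars for group means (n = 3), each panel on its own axis from 0. The liver list, like Kap, is highest in Con-sa (mean 201 RPKM) and lowest in B+A10-FMT (18.2), but its B-sa and B+Con-FMT mice overlap, while the pancreas acinar list is highest in the B+Con-FMT group and the adrenal list lowest there.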

How the data were processed

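Spleen RNA of 12 mice, 3 per group, was sequenced by the authors, who isolated RNA with TRIzol, enriched mRNA with oligo(dT) and deposited RPKM values, 1 table per mouse with 60654 RefSeq transcripts. The study's methods name SOAPaligner for the mapping, while the submitters' processing notes name HISAT, Bowtie2 and the build mm10, with no versions. The tables do not state their unit, which was taken to be RPKM from the study's methods and the size of the values. Counts were not used here. Groups came from the sample labels; doses, ages and times came from the study's methods. RPKM was summed per Entrez gene to 18221 genes, 18101 of them matched to RefSeq symbols (GRCm38.p6). limma 3.58.1 (R 4.3.3) was fitted to log2(RPKM + 1) of all 12 mice with group as the only term, trend and robust empirical Bayes, and was tested on simulated data. Depth was estimated by matching RPKM steps to transcript lengths.

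The members and lists were chosen with earlier results of these data known. Named genes were the 7 members, the up to 10 other kidney genes of highest mean RPKM among those of at least 1, the 5 genes of highest and 3 of lowest r with Kap, the 3 of highest r with each other member above background in all mice, and the 2 highest genes of each other tissue list. The highest genes of several lists, globin genes among them, and a few other values are not reported here. Exceptions are said to be so in the text, as are Tmem27 and Keg1, named because they were called. Aqp2 and Tshb are also named outside these rules. Nothing says that the mice of a group were kept apart, so p-values measure the spread between these samples, which may in part be technical.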

Additional observations from a re-analysis of the deposited data

Results flagged for a closer look

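Kap and Miox differed between the 2 kinds of FMT in the limma fit. The log2 difference of B+A10-FMT from B+Con-FMT was -3.59 for Kap, lower in 3 of 3 mice, and -0.77 for Miox, likewise lower in 3 of 3. Kap kept its call when any mouse of the 2 FMT groups was left out, and Miox lost it without replicate 2 of B+A10-FMT. Kap was chosen on its spread in these same mice, and Miox passed the filter only through Con-sa and replicate 3 of B+Con-FMT, where it is high, so both calls are a description. No group had enough mice for a check of single outlying samples.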

How the results depend on the processing

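The fitted log2 differences of Kap, Slc34a1 and Miox in the 6 comparisons, and of Fxyd2 and Napsa in the 3 with Con-sa, kept their sign under every alternative run for them, and Kap against Con-sa ranged from -3.20 to -2.75 in B-sa, from -2.17 to -1.28 in B+Con-FMT and from -5.98 to -4.91 in B+A10-FMT. Counts of calls were less steady, and the cause was not tested. With each transcript on its own, members called were 1 in B-sa vs Con-sa, 0 in B+Con-FMT vs Con-sa, 1 in B+A10-FMT vs Con-sa, 0 in B+A10-FMT vs B-sa and 1 in B+A10-FMT vs B+Con-FMT, and other kidney genes called were 0 throughout. With no filter, members called were 3 in B+Con-FMT vs Con-sa and 5 in B+A10-FMT vs Con-sa, and other kidney genes 20, 10 and 10 against Con-sa and 0 between the FMT groups. With a mean RPKM of at least 1, the member count was 1 between the FMT groups and the other kidney genes 0 against Con-sa. With a pseudocount of 0.1, members called in B+Con-FMT vs Con-sa were 0, and other kidney genes 0 there, 1 in B+A10-FMT vs Con-sa and 2 between the FMT groups. With only the 2 groups compared, members called were 0 in B+Con-FMT vs Con-sa and 0 in B+A10-FMT vs B-sa, and other kidney genes 1 and 0 in B+Con-FMT vs Con-sa and between the FMT groups. Members called in B+Con-FMT vs Con-sa were 2 with equal totals outside the globin genes and 2 without the robust setting, and other kidney genes between the FMT groups 0 after median-of-ratios scaling.

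Leaving out 1 mouse at a time gave member counts of 3 to 5, 0 to 4, 0 to 3, 0, 0 to 1 and 1 to 3 in B-sa vs Con-sa, B+Con-FMT vs Con-sa, B+A10-FMT vs Con-sa, B+Con-FMT vs B-sa, B+A10-FMT vs B-sa and B+A10-FMT vs B+Con-FMT, in that order, and counts of other kidney genes of 1 to 3, 0 to 3, 0 to 2, 0 to 1, 0 to 1 and 0 to 2. With a replicate block, members called were 4, 2, 3, 0, 1 and 3, Kap joining Slc34a1 in B+Con-FMT vs Con-sa, and other kidney genes 3, 3, 2, 0, 0 and 1. The labels do not say whether same-numbered mice belong together. Deviations of same-numbered mice from their group means correlated at -0.373 to 0.303, which cannot show whether they do. Members above background were 1 against the highest reference gene and, added after seeing the data, 4 when only the 3 Con-sa mice had to pass. Of the 5 genes most like Kap, 0 stayed among the first 5 on deviations from group means and all 5 with a pseudocount of 0.1. Depth limits Miox, with an estimated 0 to 18 reads in mice given busulfan. No read estimate was made for Slc34a1, Fxyd2, Acsm2 and Umod, which have more than 1 transcript each.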
